A study of Mus musculus with 12 samples.

Results

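The genes described here encode 37 carriers of amino acids and small peptides at the plasma membrane or in lysosomes, chosen by symbol from the 54532 genes of the count table. Each of the 37 had a row, and 31 were tested because they exceeded 0.5 CPM (counts of a gene scaled to library size) in at least 2 of 12 libraries, the level that 14894 genes reached. Marrow of wild-type C57BL/6 mice was cultured for 5 days in RPMI medium with serum, GM-CSF and IL-6, cytokines that drive the outgrowth of myeloid-derived suppressor cells (MDSCs). All 12 cultures had the same cytokines, and 4 received the vehicle (0.1% DMSO), 4 received 10 µM and 4 received 50 µM indole-3-propionic acid (IPA), a compound that gut bacteria make from tryptophan. The question asked of the groups was how IPA affects the generation of MDSCs from marrow.

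Amino acids cross membranes on solute carriers, which either exchange one amino acid for another, follow a gradient of sodium or protons, or equalise levels passively. Light chains of the SLC7 family that carry large neutral amino acids or cystine reach the cell surface bound to the heavy chain CD98, the product of *Slc3a2*, whereas the cationic carriers of the same family work without a heavy chain. In myeloid cells, arginine uptake feeds nitric oxide synthase and arginase, cystine uptake feeds glutathione, and lysosomal carriers return the products of protein breakdown to the cytosol. Cells short of amino acids translate the transcription factor ATF4, which is known to act on genes for several of these carriers through the amino acid response element.

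Library totals lay between 20451312 and 28038612 counts, and no library was a copy of another of its group. The labels do not say that the libraries of a group came from separate animals, so p-values measure only the spread between these libraries, which may be technical. In mixed cultures, fewer cells of a type and less RNA per cell cannot be told apart. The cultures expressed neutrophil, monocyte and macrophage markers, and no marker of any list was at 0 in all libraries. The 13 neutrophil markers summed to 24061 to 33365 CPM with vehicle, 22476 to 25604 CPM with 10 µM IPA and 17670.3 to 23807 CPM with 50 µM IPA, and 7 of them were lower at 50 µM than with vehicle. The 6 monocyte markers summed to 2144 to 2660.0, 2638 to 2804 and 1559 to 1865 CPM in the same order, with 4 lower at 50 µM than with vehicle. The 10 macrophage markers summed to 893 to 1077, 1211 to 1366 and 1109 to 1176 CPM, with 2 higher and 2 lower at 50 µM than with vehicle. The 7 dendritic cell markers summed to 88.6 to 103, 96.0 to 107 and 116 to 147 CPM, with 3 higher and none lower in that comparison. The 7 B cell markers summed to 51.9 to 68.7, 66.1 to 86.0 and 86.7 to 126 CPM, with 6 higher and none lower. Of the mast cell and basophil, eosinophil, erythroid, T and NK cell and stromal lists, 1 mast cell or basophil marker was higher and 1 lower, and 1 stromal marker lower, at 50 µM than with vehicle. The part of these shifts in the results on the carriers and on the further gene lists was not tested. For such cultures, the paper reports slightly reduced viability at the higher IPA dose and unaffected viability at the lower dose. It gives this as the reason for focusing its own RNA sequencing analysis on the lower dose. The part of reduced viability in the results at the higher dose, on carriers and further lists alike, was not tested.

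Per kilobase of exon, the most abundant carriers with vehicle were *Slc7a5* at 81.3 ± 6.70 CPM per kb and its heavy chain *Slc3a2* at 78.1 ± 3.25 CPM per kb (mean ± SD, n = 4), whose ranges overlapped. The taurine carrier *Slc6a6* followed at 58.3 ± 4.22 CPM per kb, apart from its neighbours on both sides. Next came the sodium-coupled glutamine carrier *Slc38a2* at 34.9 ± 1.17 and the lysosomal peptide carrier *Slc15a3* at 32.9 ± 1.75 CPM per kb. A group of 5 whose neighbouring ranges overlapped, *Slc38a10*, *Slc1a5*, *Slc7a8*, *Slc7a2* and *Slc43a2*, lay between 23.6 and 27.1 CPM per kb. The lowest tested carriers were *Slc43a1*, *Slc6a9*, *Slc7a4* and *Slc7a3*, between 0.0533 and 0.369 CPM per kb. Of the 30 pairs of neighbours in this order, 18 overlapped in their vehicle ranges. Summed over the 31 tested carriers, the level was 3535 ± 93.1 CPM with vehicle, 3706 ± 112 CPM with 10 µM IPA and 3433 ± 254 CPM with 50 µM IPA.

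**Figure D1:**
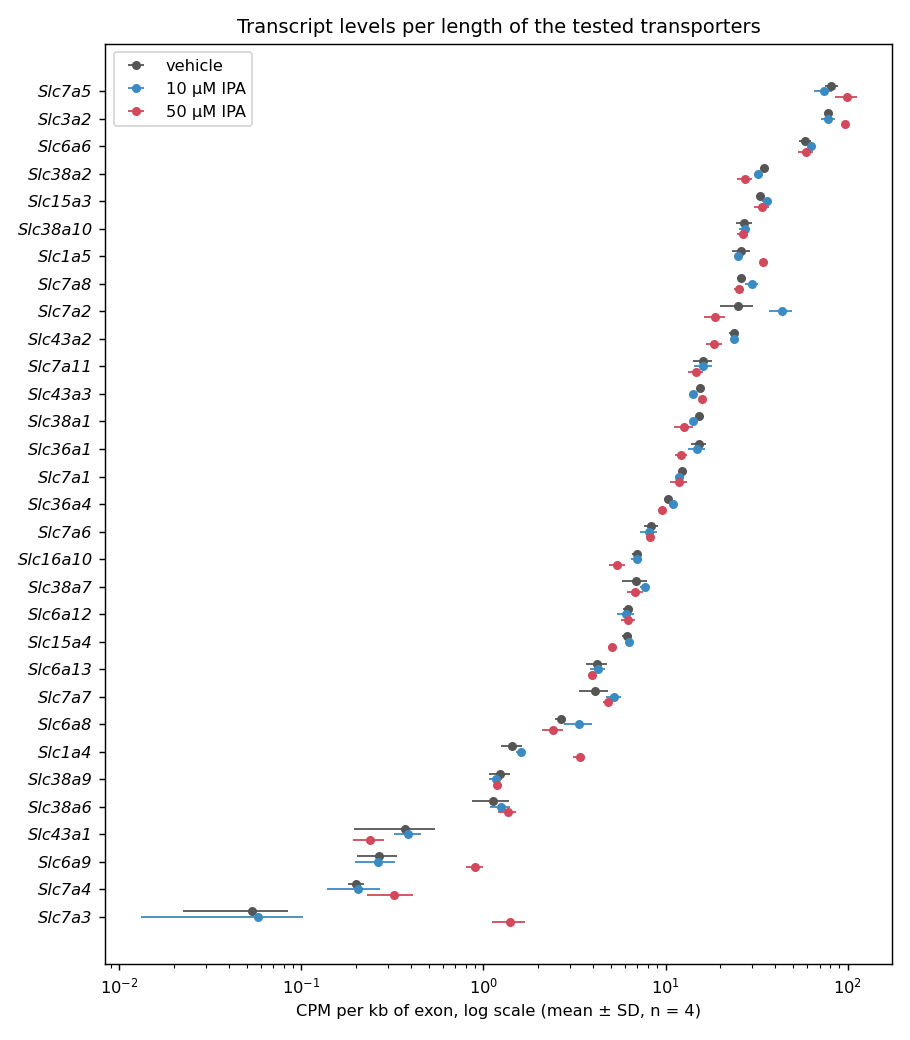
Levels of the 31 tested carriers in CPM per kb of exon, on a log axis, as mean ± SD of 4 libraries for each group, ordered by the vehicle level. *Slc7a5* and *Slc3a2* were at the top in all 3 groups, and *Slc7a3*, last with vehicle at 0.0533 CPM per kb, stood at 1.40 CPM per kb with 50 µM IPA.

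Of the 37 carriers, 6 were not tested: the glutamate carriers *Slc1a1*, *Slc1a2* and *Slc1a3*, the heavy chain *Slc3a1*, the neutral amino acid carrier *Slc38a4* and the light chain *Slc7a10*. Their counts per library reached at most 5 for *Slc1a1*, 14 for *Slc1a2*, 4 for *Slc1a3*, 3 for *Slc3a1* and 2 for *Slc38a4*. *Slc7a10* had 0 counts in every library, which allows a true level of up to 3 counts per library (counting error only).

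With 50 µM IPA, transcripts of 5 carriers were higher and those of 4 lower than with vehicle, whereas with 10 µM 1 was higher and none lower (edgeR quasi-likelihood test, adjusted p under 0.05). The 5 higher ones were *Slc7a3*, *Slc6a9*, *Slc1a4*, *Slc1a5* and *Slc3a2*, and the 4 lower ones were *Slc16a10*, *Slc36a1*, *Slc38a2* and *Slc43a2*. The share of all tested genes called in that comparison was 13.5%, with 7.0% higher and 6.5% lower, against 29.0% of the 31 carriers, with 16.1% higher and 12.9% lower. *Slc7a3* passed the filter through its 4 libraries at 50 µM alone, and 8 of the 30 other carriers were called. That is 26.7%, with 13.3% higher and 13.3% lower. The carriers were chosen with earlier results of these data known, so their shares are not independent evidence. With 10 µM IPA, 1 of 31 carriers, *Slc7a2*, was called, beside 0.41% of all genes (0.329% higher and 0.0806% lower). In that comparison 4 of the 31 carriers had an unadjusted p under 0.05, as had 1308 of the 14894 genes, and DESeq2 called *Slc7a2* too. No carrier was called without vehicle replicate 1, 2 or 3 or 10 µM replicate 2, 3 or 4. The 61 genes called became 4 without 10 µM replicate 2 and 122 without vehicle replicate 4, the ends of the range over those 8 fits. DESeq2 called 250 genes.

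Between the doses, 15 of 31 carriers differed, 6 of them higher and 9 lower at 50 µM than at 10 µM, beside 15.4% of all genes (7.52% higher and 7.85% lower). Without *Slc7a3* the count was 14 of 30. The balance of directions rested on single libraries. The count of higher calls was 6 in each of the 8 fits without 1 library. The count of lower calls was 4 without 10 µM replicate 2 and 5 without 10 µM replicate 3 or 50 µM replicate 2, 3 or 4. It was 7 or 8 without one of the other 3. The comparisons at 50 µM share their libraries, so they are not separate measurements of the high dose. The median log2 fold change of the carriers was 0.01 at 10 µM, -0.02 at 50 µM and -0.10 between the doses, and that of all genes was -0.01, 0.01 and 0.01. Among the 199 other tested genes with a solute carrier (Slc or Slco) symbol, 33 were called at 50 µM against vehicle (12 higher, 21 lower) and 36 between the doses (13 higher, 23 lower).

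**Figure D2:**
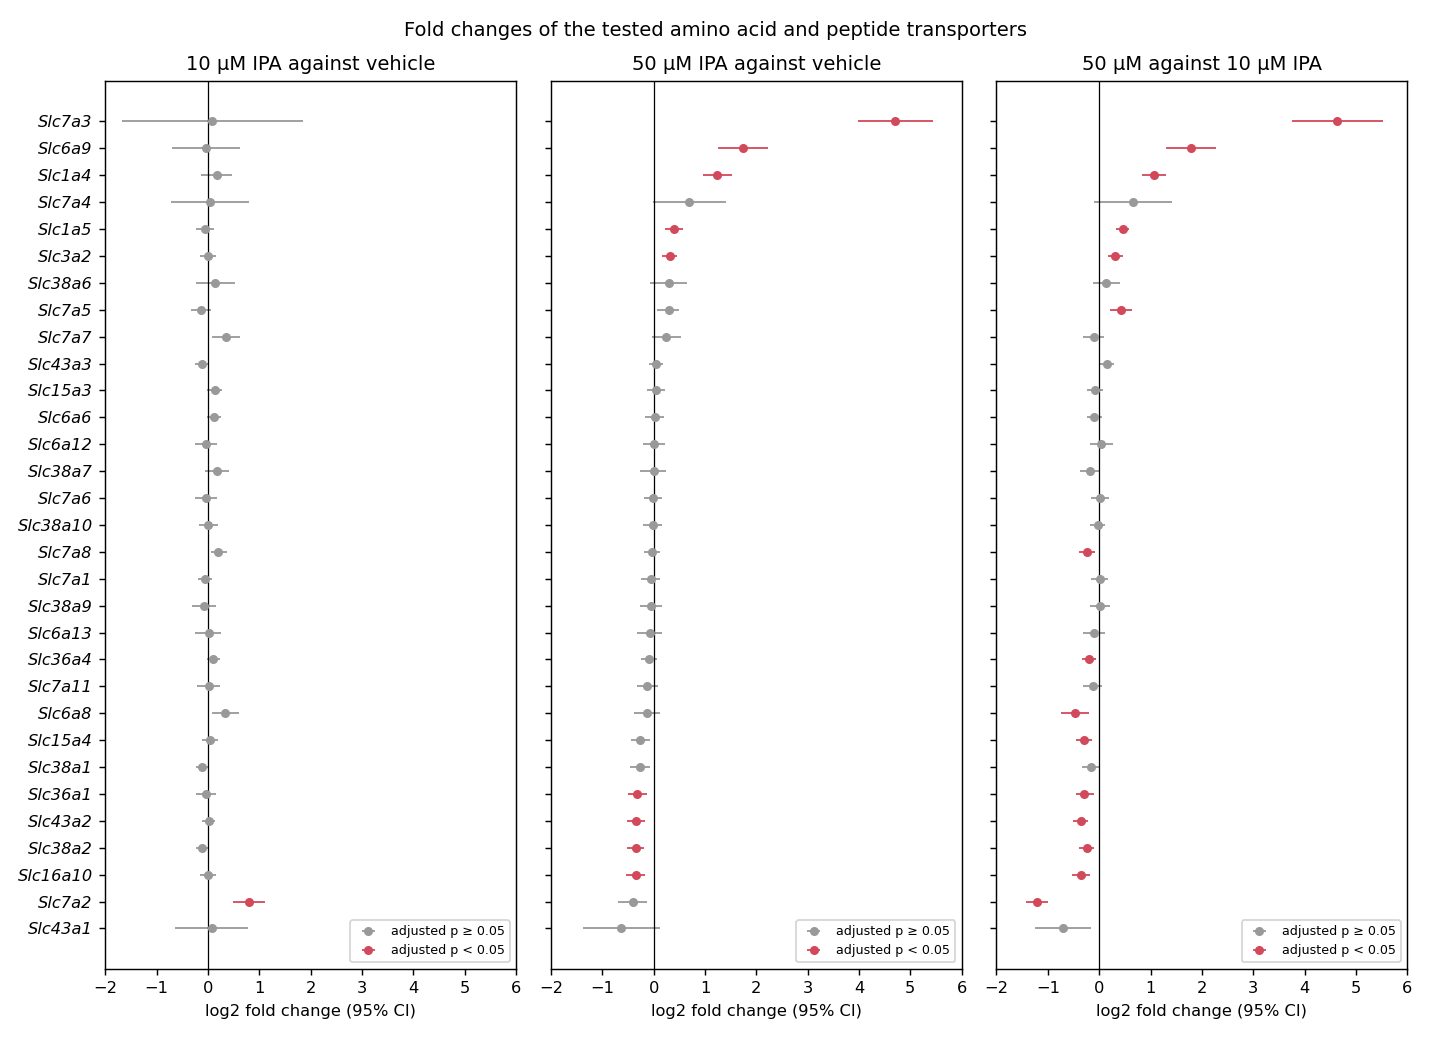
Log2 fold changes of the 31 tested carriers with 95% confidence intervals in the 3 comparisons, ordered by the change at 50 µM against vehicle, with called carriers in red. Called are 1 at 10 µM, 9 at 50 µM and 15 between the doses, and the widest intervals belong to the low *Slc7a3*, *Slc7a4* and *Slc43a1*.

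Among the sodium-dependent exchangers of neutral amino acids, both tested members of the SLC1 family rose at 50 µM. Of all genes, 7.0% were called higher at 50 µM than with vehicle and 7.52% higher than at 10 µM. *Slc1a4* (ENSMUSG00000020142, chr11:20302180-20332713, minus strand, GRCm38), which exchanges alanine, serine, cysteine and threonine, read 6.20, 6.01, 5.82 and 4.53 CPM with vehicle, 6.05, 6.19, 6.88 and 6.18 CPM with 10 µM IPA and 12.8, 13.4, 12.2 and 14.6 CPM with 50 µM IPA. The 4 libraries at 50 µM lay above all 8 others. The level was 2.36-fold that of vehicle (log2 fold change 1.24 ± 0.13 SE, adjusted p = 4.93e-05) and 2.10-fold that of 10 µM (adjusted p = 1.19e-05). The glutamine exchanger *Slc1a5* (ENSMUSG00000001918, chr7:16781340-16798274, plus strand) read 113, 124, 96.8 and 101 CPM with vehicle, 104, 106, 100.2 and 107 CPM with 10 µM IPA and 137, 146, 140.2 and 148 CPM with 50 µM IPA. Here too the 50 µM libraries did not overlap with either other group. Its rise was smaller, 1.32-fold over vehicle (log2 fold change 0.40 ± 0.08, adjusted p = 0.00634) and 1.38-fold over 10 µM (adjusted p = 7.49e-05). At 10 µM neither passed the test against vehicle, with log2 fold changes of 0.17 for *Slc1a4* (95% confidence interval -0.13 to 0.46) and -0.06 for *Slc1a5* (-0.24 to 0.11). The summed dendritic cell and B cell markers were likewise higher in every 50 µM library than in every library of the other groups. The summed macrophage markers at 50 µM lay above those of every vehicle library and below those of every 10 µM library, with 2 of the 10 called higher and 2 lower than with vehicle, and 1 higher and 6 lower than at 10 µM. The part of these markers in the rises was not tested.

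Transcripts of the heavy chain CD98 also rose at 50 µM. *Slc3a2* (ENSMUSG00000010095, chr19:8706882-8723369, minus strand) read 287, 268, 264 and 284 CPM with vehicle, 289, 300.5, 257 and 251 CPM with 10 µM IPA and 335, 355, 337 and 335 CPM with 50 µM IPA, and every library at 50 µM exceeded the 8 others. This was 1.24-fold vehicle (log2 fold change 0.31 ± 0.06, adjusted p = 0.0067) and 1.24-fold 10 µM (adjusted p = 0.00465). Its partner *Slc7a5* (ENSMUSG00000040010, chr8:121881150-121907694, minus strand), the main carrier of leucine and tryptophan, read 318, 291, 271 and 325 CPM with vehicle, 303, 298, 241 and 250.2 CPM with 10 µM IPA and 382, 415, 297 and 368 CPM with 50 µM IPA. The 50 µM libraries overlapped with both other groups through replicate 3, the lowest of the 4. The difference from 10 µM was called (1.34-fold, adjusted p = 0.00726), and that from vehicle was not (1.22-fold, log2 fold change 0.29 ± 0.10, adjusted p = 0.0748). Without replicate 3 at 50 µM or without vehicle replicate 4, the difference from vehicle was called (adjusted p = 0.0169 and 0.0265).

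None of the other 4 tested light chains was called higher at either dose. *Slc7a11* (ENSMUSG00000027737, chr3:49892526-50443614, minus strand), which imports cystine in exchange for glutamate, read 248, 239.6, 215 and 191 CPM with vehicle, 229, 260.3, 206 and 204 CPM with 10 µM IPA and 227, 215, 187 and 189 CPM with 50 µM IPA. The 3 groups overlapped, and its log2 fold change at 50 µM was -0.12 (95% confidence interval -0.32 to 0.08, adjusted p = 0.445). *Slc7a7* (ENSMUSG00000000958, chr14:54369442-54417780, minus strand), which exports arginine and lysine in exchange for neutral amino acids, read 10.7, 12.2, 15.4 and 15.7 CPM with vehicle, 16.1, 19.6, 16.6 and 16.6 CPM with 10 µM IPA and 15.3, 15.6, 17.5 and 15.5 CPM with 50 µM IPA. All 4 libraries at 10 µM lay above the vehicle libraries, but neither dose was called against vehicle (adjusted p = 0.415 at 10 µM and 0.229 at 50 µM). Its exons overlap on the opposite strand with those of *Oxa1l*, at 46.6 to 57.9 CPM, and the strand setting of the counting is not given in the sources used here, so its level is uncertain. For 7 other tested carriers, *Slc6a6*, *Slc6a9*, *Slc7a2*, *Slc7a4*, *Slc15a4*, *Slc38a9* and *Slc38a10*, the genes that overlap in this way reached at most 0.989 CPM. *Slc7a8* (ENSMUSG00000022180, chr14:54722209-54781946, minus strand), another carrier of neutral amino acids, read 134, 124, 125 and 134 CPM with vehicle, 140.5, 164, 154 and 137 CPM with 10 µM IPA and 132, 131, 116 and 125 CPM with 50 µM IPA. The 10 µM libraries were the highest, and *Slc7a8* was lower at 50 µM than at 10 µM (log2 fold change -0.24 ± 0.07, adjusted p = 0.0341). That call was lost without 10 µM replicate 2 or 3 or without 50 µM replicate 2, 3 or 4 (adjusted p = 0.0548 to 0.13). *Slc7a6*, an arginine and glutamine exchanger, had log2 fold changes of -0.04, -0.01 and 0.02 in the 3 comparisons and was not called.

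**Figure D3:**
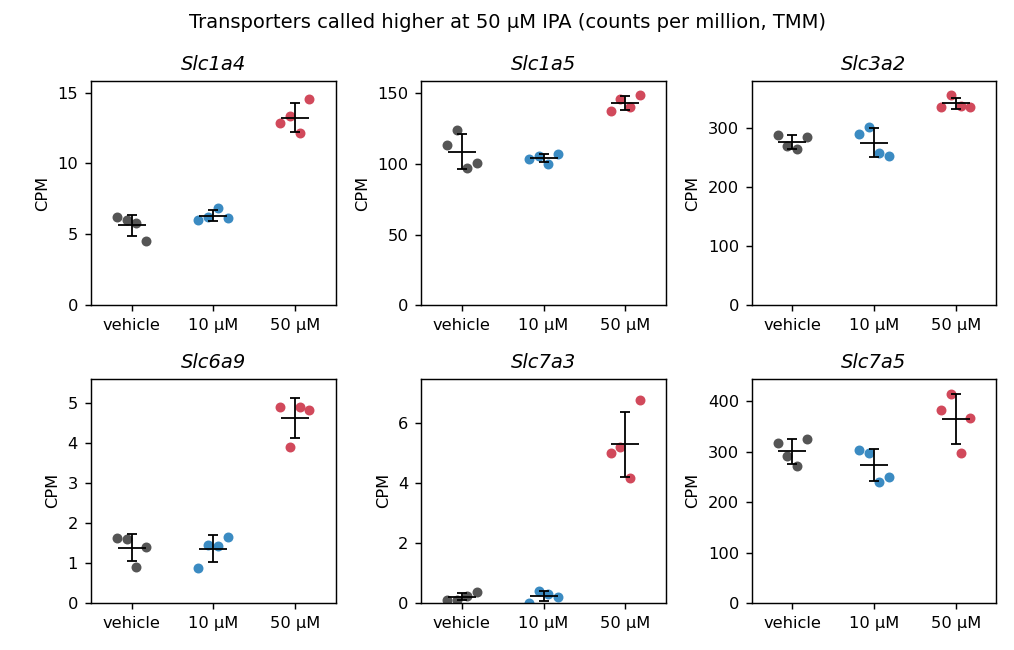
CPM (TMM-normalised) of the 6 carriers called higher at 50 µM IPA against vehicle or against 10 µM IPA, with 1 point per library and the mean ± SD of 4 libraries. For *Slc1a4*, *Slc1a5*, *Slc3a2*, *Slc6a9* and *Slc7a3* the 50 µM points lie above all others, and for *Slc7a5* replicate 3 at 50 µM, at 297 CPM, lies among the other groups.

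The sequence before the start of these genes was read from RefSeq (GRCm38.p6) in windows from 250 bases before to 50 bases after each annotated start, 44 windows in all for 27 carriers, 21 of them tested, some with several starts. Windows of *Slc1a5*, *Slc6a6*, *Slc6a8*, *Slc7a2*, *Slc7a3*, *Slc7a4*, *Slc7a5*, *Slc15a3*, *Slc38a1* and *Slc43a3* were not used here. The amino acid response element, searched as TGATGNAA on both strands, was in 3.97% of 32851 windows of that length and in 4 of the 44 windows of carriers (9.09%), those of *Slc1a4*, *Slc7a11* and *Slc7a7*. Of these, *Slc1a4* was called higher at 50 µM and the other two were not. The antioxidant response element, searched as TGACNNNGC, was in 12.4% of all windows and in 9 of the 44 windows of carriers (20.5%), those of *Slc36a1*, *Slc38a2*, *Slc43a1*, *Slc6a13*, *Slc6a9*, *Slc7a1* and *Slc7a6*. The E-box CACGTG, to which factors of the TFEB family bind in lysosomal genes, was in 7.15% of all windows and in 3 of the 44 windows of carriers (6.82%), those of *Slc36a1*, *Slc38a7* and *Slc43a1*. The first 270 bases of 3 windows are shown for a carrier that rose (*Slc1a4*, chr11:20332694-20332963, minus strand), one that was not called (*Slc7a11*, chr3:50443594-50443863, minus strand) and one that fell (*Slc36a1*, chr11:55204090-55204359, plus strand), from 250 bases before the start to 20 bases after it. Capitals mark TGATGNAA in the sequences of *Slc1a4* and *Slc7a11* and CACGTG in that of *Slc36a1*. The element in *Slc1a4* spans the annotated start, from base -4 to base 4, and the elements in *Slc7a11* begin at bases -66 and -47. In *Slc36a1* the CACGTG at bases -3 to 3 overlaps the match to TGACNNNGC at bases 2 to 10.
Slc1a4: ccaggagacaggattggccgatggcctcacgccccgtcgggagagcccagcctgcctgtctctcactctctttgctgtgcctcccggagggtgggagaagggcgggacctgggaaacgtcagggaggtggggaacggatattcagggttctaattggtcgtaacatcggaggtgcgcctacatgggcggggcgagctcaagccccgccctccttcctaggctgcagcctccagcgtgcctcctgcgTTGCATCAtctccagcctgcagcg
Slc7a11: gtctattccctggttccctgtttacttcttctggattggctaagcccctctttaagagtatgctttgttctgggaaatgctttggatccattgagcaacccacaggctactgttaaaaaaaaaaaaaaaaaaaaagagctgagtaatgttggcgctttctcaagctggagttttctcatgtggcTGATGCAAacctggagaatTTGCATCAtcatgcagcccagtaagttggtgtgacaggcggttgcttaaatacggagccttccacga
Slc36a1: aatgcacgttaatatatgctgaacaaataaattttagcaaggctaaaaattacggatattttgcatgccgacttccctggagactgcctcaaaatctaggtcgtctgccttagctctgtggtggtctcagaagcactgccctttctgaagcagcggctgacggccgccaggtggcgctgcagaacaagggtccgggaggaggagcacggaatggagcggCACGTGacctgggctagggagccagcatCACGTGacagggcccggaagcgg

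Among the cationic carriers of arginine and lysine and the related *Slc7a4*, *Slc7a3* rose at 50 µM. *Slc7a2* was higher at 10 µM than in both other groups. *Slc7a3* (ENSMUSG00000031297, chrX:101079210-101086020, minus strand), typical of the nervous system, had 3, 3, 5 and 9 counts with vehicle, 0, 8, 8 and 4 counts with 10 µM IPA and 103, 142, 86 and 162 counts with 50 µM IPA. In CPM these were 0.113, 0.111, 0.224 and 0.358 with vehicle, 0, 0.387, 0.301 and 0.183 with 10 µM and 5.03, 5.20, 4.17 and 6.80 with 50 µM. It was near 0 outside the 50 µM cultures and had the largest change of the 31 carriers there, with a log2 fold change of 4.71 ± 0.34 over vehicle (95% confidence interval 3.98 to 5.44, adjusted p = 2.96e-06) and 4.64 ± 0.42 over 10 µM (adjusted p = 2.55e-06). The size of that fold rests on the few counts at vehicle and 10 µM, and even at 50 µM its level per kb was 1.40 ± 0.290 CPM per kb, beside 11.8 ± 1.32 for the ubiquitous cationic carrier *Slc7a1*.

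*Slc7a2* (ENSMUSG00000031596, chr8:40862396-40922308, plus strand), the arginine carrier of activated macrophages, read 188, 185, 269 and 267 CPM with vehicle, 327, 398, 468 and 390.1 CPM with 10 µM IPA and 195, 169, 143 and 176 CPM with 50 µM IPA. All 10 µM libraries were above the 8 others, whereas the 50 µM and vehicle libraries overlapped. It was the only carrier called at 10 µM, 1.74-fold vehicle (log2 fold change 0.80 ± 0.14, adjusted p = 0.0394). At 50 µM it was 0.432 times its level at 10 µM (log2 fold change -1.21 ± 0.10, adjusted p = 1.62e-06), and its log2 fold change from vehicle was -0.41 ± 0.13 (adjusted p = 0.0625). The call at 10 µM was lost without vehicle replicate 1, 2 or 3 or without 10 µM replicate 2, 3 or 4 (adjusted p = 0.0523 to 0.178), with the log2 fold change between 0.71 and 0.89 over the 8 fits without 1 library. Without vehicle replicate 1 or 2, the difference of 50 µM from vehicle was called (adjusted p = 0.0391 and 0.0195). The summed macrophage markers were also higher in every 10 µM library than in every vehicle library, with 3 of the 10 called higher, and 6 of the 10 were called lower and 1 higher at 50 µM than at 10 µM. Their part in the result was not tested. *Slc7a1* had log2 fold changes of -0.06, -0.05 and 0.01 in the 3 comparisons, and the related *Slc7a4*, with log2 fold changes of 0.03, 0.69 and 0.65, was not called either.

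Of the SLC6 carriers, which take up small osmolytes and transmitters with sodium and chloride, the glycine carrier *Slc6a9* was the one called at 50 µM against vehicle. *Slc6a9* (ENSMUSG00000028542, chr4:117834506-117875198, plus strand) read 1.63, 1.60, 0.896 and 1.39 CPM with vehicle, 0.869, 1.45, 1.43 and 1.65 CPM with 10 µM IPA and 4.88, 3.88, 4.90 and 4.83 CPM with 50 µM IPA. The 50 µM libraries lay above all others, 3.34-fold vehicle (log2 fold change 1.74 ± 0.22, adjusted p = 0.000231) and 3.45-fold 10 µM (adjusted p = 6.80e-05). The creatine carrier *Slc6a8* (ENSMUSG00000019558, chrX:73673150-73682502, plus strand) read 13.7, 12.7, 14.8 and 14.2 CPM with vehicle, 16.0, 22.0, 15.6 and 16.1 CPM with 10 µM IPA and 14.3, 13.6, 11.0 and 11.2 CPM with 50 µM IPA. The 10 µM libraries were the highest, led by replicate 2, and *Slc6a8* was lower at 50 µM than at 10 µM (log2 fold change -0.47 ± 0.13, adjusted p = 0.0242). Without 10 µM replicate 2 the log2 fold change was -0.34 and the call was lost (adjusted p = 0.0963), as it was without 50 µM replicate 3 (0.0676) or 4 (0.0803). The taurine carrier *Slc6a6*, the most abundant of the family, was at 493 ± 35.7 CPM with vehicle, 532 ± 8.61 CPM with 10 µM IPA and 497 ± 47.1 CPM with 50 µM IPA and was not called. The betaine and GABA carriers *Slc6a12* and *Slc6a13* had log2 fold changes at 50 µM of 0.01 and -0.08.

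Both lysosomal carriers of histidine and peptides, known for passing bacterial muropeptides to innate sensors, were expressed. *Slc15a3* (ENSMUSG00000024737, chr19:10839727-10859362, plus strand) read 191, 173, 186 and 172 CPM with vehicle, 202, 211, 191 and 185 CPM with 10 µM IPA and 202, 197, 165 and 178 CPM with 50 µM IPA. The 3 groups overlapped, and no comparison called it (log2 fold change at 50 µM 0.04, 95% confidence interval -0.13 to 0.22). Its exons overlap on the opposite strand with *Tmem132a*, at 7.39 to 14.7 CPM. *Slc15a4* (ENSMUSG00000029416, chr5:127595664-127632897, minus strand) read 31.8, 31.3, 31.6 and 35.7 CPM with vehicle, 33.6, 34.8, 32.5 and 32.6 CPM with 10 µM IPA and 26.2, 27.2, 25.9 and 29.1 CPM with 50 µM IPA. All 50 µM libraries were below the 8 others. It was 0.814 times its level at 10 µM (log2 fold change -0.30 ± 0.08, adjusted p = 0.0144), a call lost without 10 µM replicate 2 (adjusted p = 0.0528), and against vehicle it missed the threshold (log2 fold change -0.26 ± 0.08, adjusted p = 0.0559).

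Of the 4 tested carriers of the SLC16 and SLC43 families, which move their substrates along the gradient, 2 fell at 50 µM. Of all genes, 6.5% were called lower at 50 µM than with vehicle and 7.85% lower than at 10 µM. *Slc16a10* (ENSMUSG00000019838, chr10:40033532-40142258, minus strand), a carrier of aromatic amino acids such as tryptophan, read 55.3, 49.4, 49.2 and 50.7 CPM with vehicle, 52.3, 55.4, 47.0 and 49.9 CPM with 10 µM IPA and 45.5, 40.0, 37.8 and 36.5 CPM with 50 µM IPA. The 50 µM libraries lay below all others, at 0.785 times vehicle (log2 fold change -0.35 ± 0.09, adjusted p = 0.0165) and 0.783 times 10 µM (adjusted p = 0.00892). The call against vehicle was lost without vehicle replicate 1 (adjusted p = 0.0523) or 50 µM replicate 4 (0.0585). *Slc43a2* (ENSMUSG00000038178, chr11:75531694-75577575, plus strand), a carrier of branched-chain amino acids, phenylalanine and methionine, read 257, 231, 233 and 227 CPM with vehicle, 233, 237, 248 and 239 CPM with 10 µM IPA and 207, 191, 162 and 184 CPM with 50 µM IPA. Again the 50 µM libraries were the lowest, at 0.788 times vehicle (log2 fold change -0.34 ± 0.08, adjusted p = 0.0142) and 0.778 times 10 µM (adjusted p = 0.00264). Its exons overlap on the opposite strand with *Gm45606*, at 2.89 to 6.16 CPM. *Slc43a1*, of the same kind, had a log2 fold change of -0.63 ± 0.35 at 50 µM (adjusted p = 0.266) from 2.11 ± 1.00 CPM with vehicle, and *Slc43a3*, which carries purine nucleobases, one of 0.04 ± 0.07 (adjusted p = 0.737). The summed neutrophil and monocyte markers were also below vehicle in every 50 µM library, and their part in these falls and in those of the SLC36 and SLC38 carriers was not tested.

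Of the SLC36 carriers, the proton-coupled lysosomal *Slc36a1* (ENSMUSG00000020261, chr11:55204350-55236330, plus strand) read 88.8, 93.9, 85.3 and 74.4 CPM with vehicle, 73.3, 79.5, 87.0 and 93.6 CPM with 10 µM IPA and 74.2, 67.9, 61.5 and 69.2 CPM with 50 µM IPA. The 50 µM libraries lay below those of vehicle, by a narrow margin, and overlapped with those of 10 µM. It fell to 0.801 times vehicle (log2 fold change -0.32 ± 0.09, adjusted p = 0.0256) and 0.821 times 10 µM (adjusted p = 0.0295). The first call was lost without vehicle replicate 1, 2 or 3 or 50 µM replicate 2, 3 or 4 (adjusted p = 0.0578 to 0.0712), and the other without 10 µM replicate 3 or 4 or 50 µM replicate 2, 3 or 4 (0.0627 to 0.0858). *Slc36a4* (ENSMUSG00000043885, chr9:15709738-15743361, plus strand), a carrier with high affinity for proline and tryptophan, read 68.5, 63.2, 69.9 and 66.6 CPM with vehicle, 71.4, 73.3, 70.2 and 72.1 CPM with 10 µM IPA and 61.5, 59.2, 63.3 and 65.6 CPM with 50 µM IPA. The 50 µM libraries were below the 10 µM libraries and overlapped with vehicle. The difference between the doses just passed the test (log2 fold change -0.20 ± 0.06, adjusted p = 0.0474) and was lost on leaving out any 1 of the 8 libraries (adjusted p = 0.0528 to 0.146), as it was with library totals (0.064) or no filter (0.112).

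*Slc38a2* (ENSMUSG00000022462, chr15:96687392-96699730, minus strand), which imports glutamine and other neutral amino acids with sodium and is known as a gene induced by amino acid shortage, read 323, 307, 304 and 299 CPM with vehicle, 281, 282, 288 and 288 CPM with 10 µM IPA and 258, 235, 209.7 and 258 CPM with 50 µM IPA. The groups did not overlap, with vehicle the highest and 50 µM the lowest. At 50 µM it was 0.783 times vehicle (log2 fold change -0.35 ± 0.08, adjusted p = 0.00895) and 0.846 times 10 µM (log2 fold change -0.24 ± 0.07, adjusted p = 0.0252), while the difference of 10 µM from vehicle was not called (adjusted p = 0.575). The call between the doses was lost without 10 µM replicate 2 or 3 or 50 µM replicate 2 (adjusted p = 0.0604 to 0.0733). Its close relative *Slc38a1* was at 264 ± 9.60 CPM with vehicle and 218 ± 26.9 CPM with 50 µM IPA, a log2 fold change of -0.27 ± 0.09 that missed the threshold (adjusted p = 0.0577) and passed it without vehicle replicate 4 (0.0303) or 50 µM replicate 1 (0.0423). The lysosomal glutamine carrier *Slc38a7*, the lysosomal arginine sensor *Slc38a9*, and *Slc38a6* and *Slc38a10* were not called in any comparison. Their log2 fold changes at 50 µM against vehicle were 0.00, -0.06, 0.29 and -0.02.

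**Figure D4:**
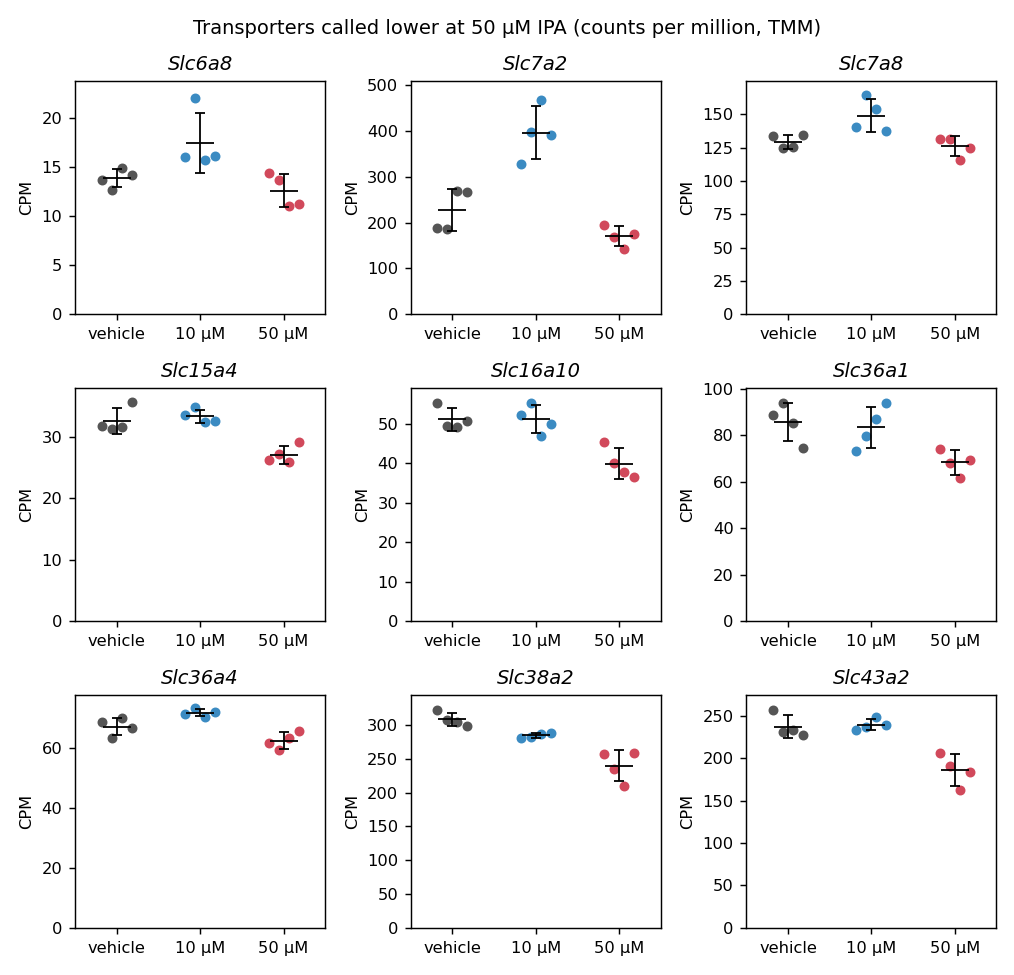
CPM (TMM-normalised) of the 9 carriers called lower at 50 µM IPA against vehicle or against 10 µM IPA, with 1 point per library and the mean ± SD of 4 libraries. *Slc15a4*, *Slc16a10*, *Slc38a2* and *Slc43a2* have all 50 µM points below those of both other groups, and *Slc7a2*, *Slc6a8*, *Slc7a8* and *Slc36a4* have all 10 µM points above those of both other groups.

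Genes known to respond to amino acid shortage through ATF4, none of them a carrier described here, moved at the same dose. Of 26 tested, 21 were higher and none lower at 50 µM than with vehicle, with a median log2 fold change of 0.67. That is 80.8% of the list, beside 13.5% of all genes (7.0% higher). Between the doses 20 were higher and none lower at 50 µM (median 0.56), 76.9% beside 15.4% of all genes (7.52% higher), and DESeq2 called 20 higher and 1 lower. There were 0 called at 10 µM against vehicle by edgeR and 0 by DESeq2 (4 with an unadjusted p under 0.05 in edgeR). *Cth*, which makes cysteine from cystathionine, was at 1.39 ± 0.440 CPM with vehicle and 29.0 ± 6.72 CPM with 50 µM IPA (log2 fold change 4.38, adjusted p = 1.90e-07). The mitochondrial transaminase *Gpt2* was at 12.0 ± 0.884 CPM with vehicle and 28.8 ± 2.17 CPM with 50 µM IPA (log2 fold change 1.27, adjusted p = 3.78e-06). *Aldh1l2* and *Mthfd2*, enzymes of mitochondrial folate metabolism, rose by log2 fold changes of 3.11 and 0.73, with adjusted p of 1.50e-05 and 6.48e-05. This list was drawn up with earlier results of these libraries known, so its direction is not independent evidence.

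Of 13 targets of NRF2, the factor that also acts on *Slc7a11*, 4 were higher and 1 lower at 50 µM than with vehicle, 38.5% beside 13.5% of all genes (30.8% beside 7.0% higher). They were led by *Osgin1*, an oxidative stress response gene, at 19.6 ± 2.00 CPM with vehicle and 33.0 ± 2.28 CPM with 50 µM IPA (log2 fold change 0.76, adjusted p = 0.000175). The quinone reductase *Nqo1* had a log2 fold change of 0.68 (adjusted p = 0.00141), the heme carrier *Slc48a1* one of 0.46 (0.00195) and the peroxiredoxin *Prdx1* one of 0.53 (0.00764). The target that was lower, *G6pdx* of the pentose phosphate pathway, had one of -0.31, adjusted p = 0.0152. At 10 µM, 1 target was higher than with vehicle, the heme oxygenase *Hmox1* (log2 fold change 0.58, adjusted p = 0.046), 7.69% beside 0.41% of all genes. DESeq2 called 1 higher and 1 lower there. Between the doses 4 targets were higher and 1 lower at 50 µM, 38.5% beside 15.4% of all genes, and DESeq2 called 4 higher and 2 lower. The higher ones were *Osgin1* (log2 fold change 0.72, adjusted p = 5.08e-05), *Nqo1* (0.77, adjusted p = 8.90e-05), *Slc48a1* (0.30, adjusted p = 0.00399) and the glutathione reductase *Gsr* (0.22, adjusted p = 0.0146). The lower one was *Hmox1* (log2 fold change -0.58, adjusted p = 2.90e-05). *G6pdx*, *Hmox1* and *Gsr* were named after their values were seen. Of 30 genes of lysosomal amino acid sensing upstream of mTORC1, 2 were called at 50 µM against vehicle (6.67% beside 13.5% of all genes) and 3 by DESeq2. By edgeR 1 was higher, the arginine sensor *Castor1* at 4.36 ± 0.302 CPM with vehicle and 7.23 ± 1.21 CPM with 50 µM IPA (log2 fold change 0.73, adjusted p = 0.00746), and 1 lower, the small GTPase *Rragb* at 1.16 ± 0.239 CPM with vehicle and 0.284 ± 0.194 CPM with 50 µM IPA (log2 fold change -1.95, adjusted p = 0.0172). Between the doses 4 of the 30 were higher and none lower, 13.3% beside 15.4% of all genes. DESeq2 called 5, 4 higher and 1 lower. The 4 called by edgeR were *Castor1* (log2 fold change 0.80, adjusted p = 0.00498), *Sesn1* (0.37, adjusted p = 0.0375) and, named after their values were seen, *Wdr24* (0.33, adjusted p = 0.0187) and *Sesn3* (0.34, adjusted p = 0.0371). Of 13 further amino acid and peptide carriers, most of them mitochondrial or lysosomal, none was higher and 2 were lower at 50 µM than with vehicle, 15.4% beside 13.5% of all genes. They were the mitochondrial aspartate and glutamate carrier *Slc25a12* (log2 fold change -0.45, adjusted p = 0.00134) and the lysosomal cationic carrier *Pqlc2* (-0.42, adjusted p = 0.0226). Between the doses 2 of the 13 were called, 15.4% beside 15.4% of all genes. One was lower, *Slc25a12* (log2 fold change -0.29, adjusted p = 0.00664), and the other higher, the mitochondrial carrier *Slc25a39* (log2 fold change 0.26, adjusted p = 0.0167).

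**Figure D5:**
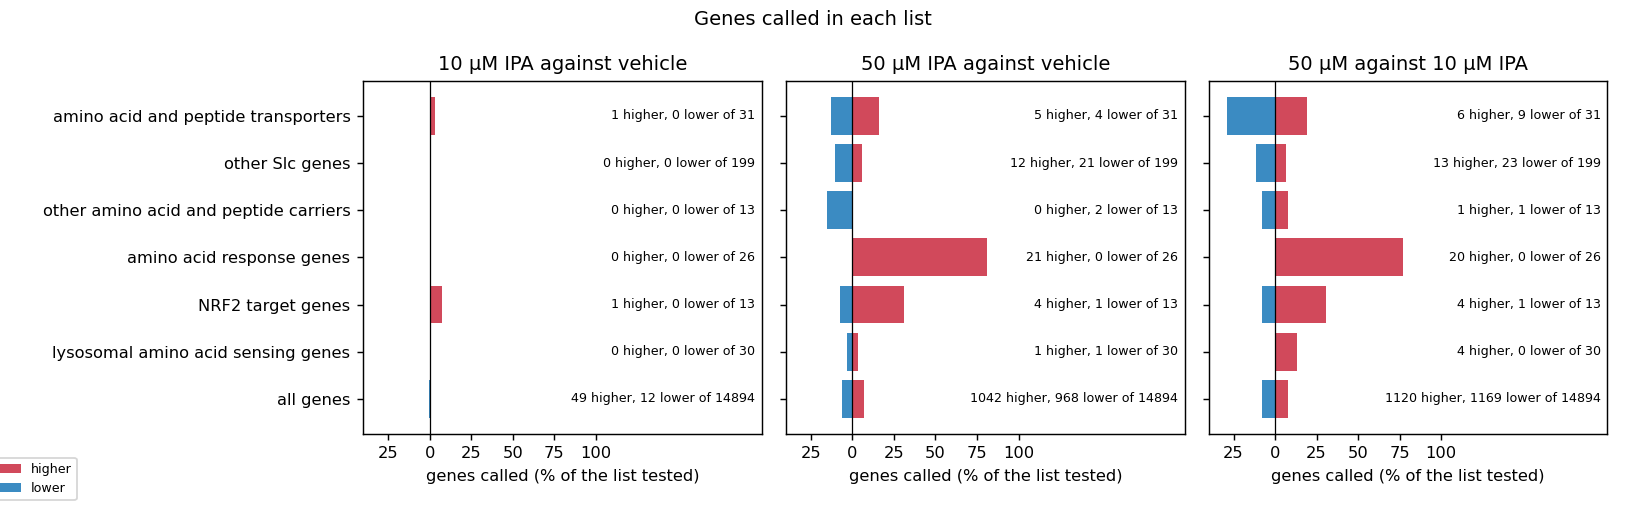
Percent of tested genes called higher (red, right of 0) and lower (blue, left of 0) in the carriers, the other solute carrier genes, 4 further lists and all genes, for the 3 comparisons, with the counts beside the bars. Of the amino acid response genes, 21 of 26 were higher at 50 µM than with vehicle, beside 5 higher and 4 lower of the 31 carriers.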

How the data were processed

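The authors prepared stranded mRNA libraries from 25 ng of RNA per sample, which an AVITI sequencer read. Reads were trimmed by the authors (Atropos), mapped to mm10 (HISAT2 2.2.1) and assigned to Ensembl genes (featureCounts 2.0.1), and the deposited values are the resulting raw counts, not normalised or filtered. The strand setting is not given in the sources used here. Medium was renewed every other day per the methods and on day 3 per the labels. Because 2 samples of the 10 µM group share a title, their library names told them apart.

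Genes over 0.5 CPM in at least 2 of the 12 libraries (14894) were compared in 3 pairs of groups, each on its 8 libraries, with edgeR 4.0.16 in R 4.3.3 (TMM, glmQLFit, glmQLFTest, Benjamini-Hochberg adjustment over all genes tested, threshold 0.05), after a check on counts with known changes. CPM are TMM-normalised, and GENCODE M21 (GRCm38) gave exon lengths and positions. Totals of 20451312 to 28038612 counts set the precision. Values in every library are given for carriers called in at least 1 comparison and for *Slc3a2*, *Slc7a5*, *Slc7a11*, *Slc7a7*, *Slc16a10*, *Slc15a3* and *Slc15a4*, and up to 4 genes per further list are named, those with the smallest p at 50 µM against vehicle. *G6pdx*, *Hmox1*, *Gsr*, *Wdr24* and *Sesn3* fall outside that rule and were named after their values were seen. Members and lists were chosen with earlier results of these data known. Alternatives were DESeq2 1.42.0, its size factors in edgeR, library totals, no filter, a minimum of 10 counts per library, all 12 libraries in 1 fit, a replicate block, an offset for exon length (lowess, span 0.3) and leaving out each library. Promoter windows are those of RefSeq on GRCm38.p6.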

Additional observations from a re-analysis of the deposited data

Results flagged for a closer look

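Each of the 93 sets of 4 libraries (31 tested carriers in 3 groups) was checked with Dixon's test for a library far from the others, and 6 passed its 95% critical value. Chance gives about 1 in 20 such sets. The 93 sets share the same 12 libraries and are not independent, so the number found cannot be weighed against that share. At 50 µM, replicate 2 read 355 CPM, beside 335 to 337 CPM in the other 3, for *Slc3a2*, and for *Slc6a9* the same library read 3.88 CPM, beside 4.83 to 4.90 CPM in the other 3. Both genes were called higher at 50 µM in every fit that left out 1 library. At 10 µM, replicate 2 was also the highest for *Slc6a8*, at 22.0 CPM, beside 15.6 to 16.1 CPM in the other 3, and for *Slc7a7*, at 19.6 CPM, beside 16.1 to 16.6 CPM in the other 3. The call of *Slc6a8* between the doses was lost without that library (adjusted p = 0.0963), while *Slc7a7* was not called in any comparison. In replicate 3 at 50 µM, *Slc7a7* was 17.5 CPM, beside 15.3 to 15.6 CPM in the other 3. For *Slc15a4*, vehicle replicate 4 was 35.7 CPM, beside 31.3 to 31.8 CPM in the other 3. No cause was tested for any of these.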

How the results depend on the processing

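The count of carriers called at 10 µM, 1 in the reported fit, was 0 under the replicate block and between 0 and 1 in the fits that left out 1 library. At 50 µM against vehicle the count of 9 became 12 by DESeq2, 12 with no filter, 12 with all 12 libraries in 1 fit and 8 with at least 10 counts in every library, and lay between 7 and 11 without 1 library. Between the doses the count of 15 lay between 14 and 15 under these alternatives and between 10 and 14 without 1 library. Over all genes, the 61 called at 10 µM became 250 by DESeq2, 150 with no filter, 118 with all 12 libraries, 102 with the exon length offset and 3 under the replicate block, and lay between 4 (without 10 µM replicate 2) and 122 (without vehicle replicate 4) when 1 library was left out, with each of the 8 moving the count by more than 1.5 times. At 50 µM against vehicle the 2010 genes lay between 1248 (without vehicle replicate 3) and 2689 (without vehicle replicate 4), with 1313 without 50 µM replicate 2. None of the 25 called values of the carriers changed sign under any alternative run, and 16 of them kept their call in all. *Slc7a2*, *Slc15a4* and *Slc38a1* were called lower at 50 µM than with vehicle by DESeq2 (adjusted p = 0.0221, 0.028 and 0.0254) and with all 12 libraries (0.0471, 0.0186 and 0.0221). Of 1087 recomputed values that were not called, 83 had the other sign. Whether replicate numbers pair the samples is not known. The deviations of same-numbered libraries correlated at -0.242 to 0.142 and those of differently numbered libraries at -0.255 to 0.272. Such correlations cannot show that the samples were unpaired. For viability and monocyte shares of such cultures, the paper used a repeated-measures test. The block left 9 carriers called at 50 µM against vehicle and 14 between the doses. For *Slc7a2* at 10 µM it gave adjusted p = 0.0746 and for *Slc36a4* between the doses 0.0763, and it changed no other call of the 25. *Slc36a4* was also lost with library totals (0.064) and with no filter (0.112). The causes were not tested. Counts under 10 per library, as for *Slc7a3* outside 50 µM, limit the precision of its fold, and the stricter filter could not include it.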
